A study of Mus musculus with 9 samples.

Results

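The miR-99/100 and miR-125 families are a pair of old microRNA families that mammals carry side by side in the genome. Their members were chosen by name, as the table's rows for the guide strands mmu-miR-99a-5p, mmu-miR-99b-5p, mmu-miR-100-5p, mmu-miR-125a-5p and mmu-miR-125b-5p, where mmu stands for mouse and is left off from here on. All 5 were found among the 1129 rows of the count table, and all 5 were among the 447 rows with enough counts to be tested. The table comes from small RNA sequencing of skin from the backs of adult C57BL/6 mice, an inbred strain, all female and 6 months old, each wounded under pentobarbital sodium with a punch of 8 mm diameter. The 9 libraries form 3 groups of 3, namely skin of a diabetic mouse model, skin from wound edges at day 7, and skin cut out at wounding, called day 0. The labels name no agent or mutation behind the diabetes. The titles of the diabetic samples carry T7, their columns in the table carry T0, and their treatment text describes skin taken at wounding, so their day was treated as unknown and they were compared with both other groups. The labels speak of 9 mice without saying whether any animal gave a sample to more than 1 group. They do not state that replicates came from separate animals either, and the p-values then measure a spread between samples that may be technical.

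A microRNA is a short RNA that guides an Argonaute protein to messenger RNAs, mostly by pairing through its seed, the bases just after the first one. The mouse genome keeps 3 copies of the same arrangement, in which a miR-99/100 gene, a let-7 gene and a miR-125 gene follow each other on 1 strand. miR-125 is the counterpart of lin-4, the first microRNA found in Caenorhabditis elegans, where lin-4 and let-7 time the larval stages. In skin, miR-125b is known for holding mouse hair follicle stem cells back from differentiation, and miR-99 family members are known to target parts of the AKT and mTOR signalling pathway, which promotes growth and migration of keratinocytes.

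The mature sequences below, from RefSeq on GRCm38.p6, are shown because shared seeds and near-identical bodies decide which rows can be told apart. Capitals mark the seed, bases 2 to 8 from the 5′ end.
miR-99a-5p: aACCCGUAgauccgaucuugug
miR-100-5p: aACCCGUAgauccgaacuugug
miR-99b-5p: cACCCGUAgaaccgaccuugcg
miR-125b-5p: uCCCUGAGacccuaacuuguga
miR-125a-5p: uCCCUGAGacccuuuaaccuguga

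Names of 936 of the 1129 rows matched a RefSeq mature sequence. Of these, 3 carried the seed of miR-99a-5p, and they were the 3 members of the miR-99/100 family. The seed of miR-125b-5p was carried by 3 rows as well, the 2 members and miR-351-5p, which belongs to another locus. Counted from 1 at the 5′ end, miR-99a-5p and miR-100-5p differ by a single substitution, U16A, given with the base of miR-99a-5p first. From miR-99a-5p to miR-99b-5p the substitutions are A1C, U11A, U16C and U21C. miR-125a-5p, of 24 bases, and miR-125b-5p, of 22 bases, share their first 13 bases. No source used here gives the number of mismatches the authors allowed, and a read of miR-99a-5p with 1 error could be counted as miR-100-5p, so their rows were also summed.

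On GRCm38.p6, with gene annotation from GENCODE M21, the first cluster lies on the plus strand of chromosome 9. Mature miR-100-5p lies there at chr9:41531437-41531458 and a copy of miR-125b-5p at chr9:41581940-41581961. The hairpins of this cluster, Mir100, Mirlet7a-2 and Mir125b-1, span 50.578 kb within introns of the noncoding genes 3110039I08Rik and Gm49317. Mir100 also overlaps an exon of Gm48742 on the opposite strand, and Mir125b-1 an exon of Gm28119. The second cluster lies on the plus strand of chromosome 16, with miR-99a-5p at chr16:77598940-77598961 and the other copy of miR-125b-5p at chr16:77646279-77646300. Its hairpins Mir99a, Mirlet7c-1 and Mir125b-2 span 47.408 kb within an intron of the noncoding gene Mir99ahg. The third is compact: Mir99b, Mirlet7e and Mir125a span 692 bases of Spaca6, a protein-coding gene, on the plus strand of chromosome 17. There miR-99b-5p lies at chr17:17830194-17830215 in an intron, and miR-125a-5p at chr17:17830817-17830840 in a hairpin that overlaps an exon. Both copies of miR-125b-5p have the same mature sequence, so its row is the sum of a chromosome 9 and a chromosome 16 gene.

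Library totals ranged from 2537167 to 5453539 counts. miR-21a-5p, a microRNA known to be induced in wounds, took 13.7 to 19.4% of the counts in diabetic skin, 40.6 to 55.6% at day 7 and 18.6 to 33.2% at day 0, so each library was scaled by trimmed mean of M values (TMM), which sets a typical miRNA to no change. No spike-in is named in the labels, and a fold change here is a change against the bulk of miRNAs. All levels below are CPM values, read counts relative to the TMM-adjusted library total, with no length term for RNAs of 22 to 24 bases. A miRNA was called at an adjusted p under 0.05 in edgeR's quasi-likelihood test over all 447 rows. All 7 markers of keratinocytes and other epithelia, miR-203-3p, miR-205-5p and 5 miRNAs of the miR-200 family, had at least 253 counts in each library, so the defining markers of skin epithelium were present.

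The members covered a wide range of levels in skin. miR-99a-5p ranked 14 of 447 by mean CPM, miR-100-5p 35, miR-99b-5p 42, miR-125b-5p 49 and miR-125a-5p 93. Their lowest count in any library was 930, so no member rests on few counts. Within libraries, counts of miR-99a-5p exceeded those of miR-100-5p in 9 of 9, by 1.93 to 3.39 times. miR-100-5p was above miR-99b-5p in 8 of 9 libraries, and miR-99b-5p was above miR-125b-5p in 8 of 9, so these neighbours in the order were not separated in every library. miR-125b-5p exceeded miR-125a-5p in 9 of 9 libraries, by 3.87 to 6.69 times. Ligation of adapters depends on sequence, and its part in these differences between miRNAs was not tested.

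**Figure D1:**
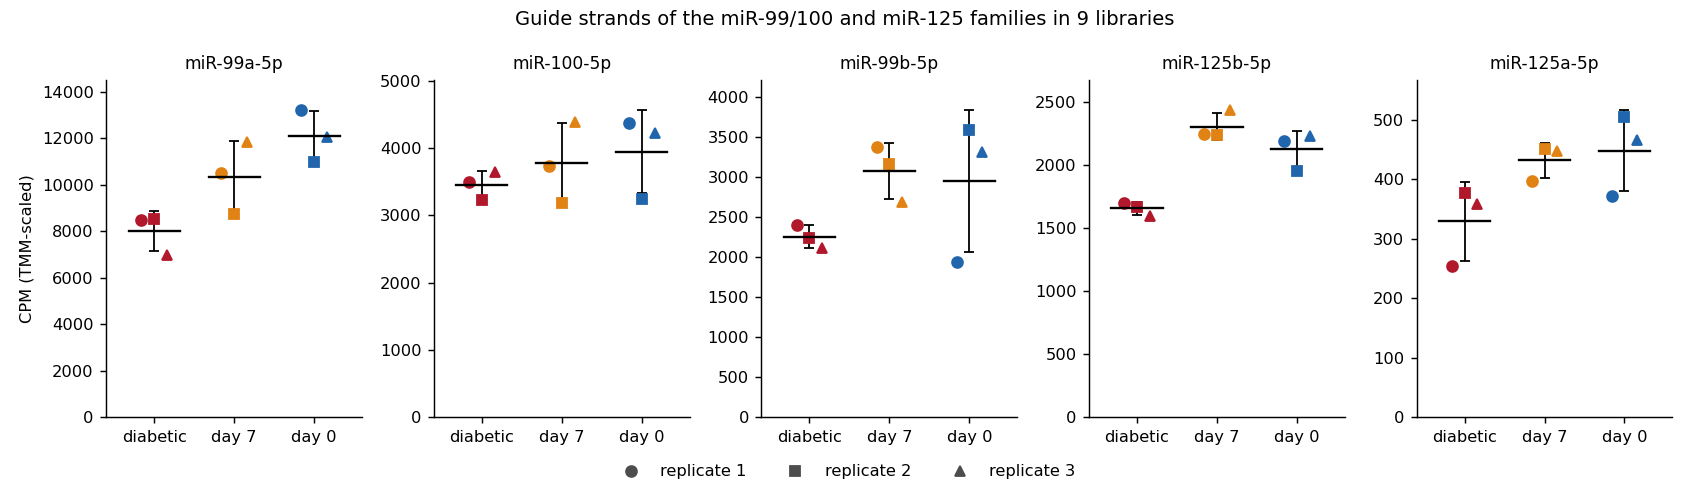
Level of each of the 5 guide strands in each library, in TMM-scaled CPM (vertical axis, from 0), by group (horizontal axis: diabetic, day 7, day 0). Symbols are libraries by replicate number, and horizontal lines with whiskers are the group mean and SD of 3; the 3 diabetic libraries lie below all day 7 and day 0 libraries for miR-99a-5p and miR-125b-5p.

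miR-99a-5p, the most abundant member, had 8479, 8538 and 6999 CPM in the diabetic libraries, 10489, 8741 and 11820 CPM at day 7, and 13196, 10995 and 12042 CPM at day 0. The diabetic libraries were all below every library of the other groups, while day 7 and day 0 overlapped. miR-100-5p, its near-identical relative on chromosome 9, averaged 3449 ± 208 CPM in diabetic skin, 3770 ± 602 CPM at day 7 and 3946 ± 611 CPM at day 0 (SD, n = 3 each). Its 3 groups overlapped with each other. miR-99b-5p, the member on chromosome 17, had 2405, 2246 and 2115 CPM in the diabetic libraries, 3374, 3169 and 2694 CPM at day 7, and 1934, 3588 and 3317 CPM at day 0. The diabetic libraries lay below those of day 7, and 1 day 0 library was below them all.

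miR-125b-5p, the more abundant carrier of the miR-125 seed, had 1700, 1672 and 1600 CPM in the diabetic libraries, 2244, 2242 and 2435 CPM at day 7, and 2191, 1955 and 2229 CPM at day 0. The diabetic libraries were below all others, and every day 7 library was above every day 0 library, although by little. miR-125a-5p, its relative on chromosome 17, had 254, 377 and 358 CPM in the diabetic libraries, 398, 451 and 448 CPM at day 7, and 373, 506 and 466 CPM at day 0. All diabetic libraries were below day 7, and they overlapped with day 0. Replicate 1 of day 0 held the lowest value of its group for both guide strands of the chromosome 17 cluster. The same held for their let-7 neighbour, let-7e-5p, at 417 CPM against 631 and 596 CPM in the other day 0 libraries. This was not particular to the cluster. That library was also lowest for miR-21a-5p, at 147910 against 324250 and 259947 CPM, and for miR-205-5p, at 5704 against 8320 and 8759 CPM. For miR-99a-5p and miR-100-5p it was the highest of its group.

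Diabetic skin against day 7 skin was the contrast with a called member. The treatment text of the diabetic samples describes skin cut out at wounding, while day 7 skin came from wound edges of mice not labelled diabetic. Diabetes, wounding and sampled site thus cannot be told apart in this contrast. miR-125b-5p was lower in diabetic skin under TMM scaling, though not under total counts, at 1657 ± 51.9 CPM against 2307 ± 111 CPM at day 7 (SD, n = 3 each), a log2 fold change of -0.48 ± 0.12 (SE) with an adjusted p of 0.0180 in edgeR. It was 1 of 5 members called, in a contrast where 89 of 447 miRNAs were called (19.9%), of which 54 were lower (12.1%) and 35 higher (7.83%). Of the members, 2 of 5 had an unadjusted p under 0.05, beside 34.9% of all tested. Ranges were lower without overlap for 4 of 5 members, all but miR-100-5p, beside 20.8% of all tested miRNAs, and 5 of 5 members had log2 fold changes below 0 under TMM and above 0 under total counts, beside 52.6% of all tested below 0 under TMM. The median over the members was -0.39 and over all tested miRNAs -0.02. The log2 fold change for miR-99b-5p was -0.45 ± 0.21 (adjusted p = 0.154), for miR-125a-5p -0.39 ± 0.19 (0.166), for miR-99a-5p -0.37 ± 0.17 (0.140) and for miR-100-5p -0.13 ± 0.16 (0.609). The 95% interval of the miR-100-5p difference ran from -0.49 to 0.23. With both miR-125 rows summed, the log2 fold change was -0.41 ± 0.12 with an adjusted p of 0.0342.

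The direction in this contrast depended on the scaling. With plain library totals, all 5 members had positive log2 fold changes, with a median of 0.23, and the median of all tested miRNAs moved to 0.61. Measured from the median of all tested miRNAs, the members' median lay at -0.37 under TMM and at -0.38 under total counts. A change of scaling moves all miRNAs of a contrast by nearly the same amount, so this distance could hardly change and is no check. The split of all calls moved as well, to 174 higher and 24 lower under total counts. miR-125b-5p passed in 10 of 21 alternatives. Its log2 fold change was -0.37 under upper-quartile scaling (edgeR adjusted p = 0.106), -0.56 with totals without miR-21a-5p (0.0518), -0.38 without the filter on low counts (0.376), 0.17 under total counts (0.495) and 0.16 in limma (0.545). Its call was lost without any 1 of the day 7 libraries, with an adjusted p of 0.0967, 0.0893 and 0.0850 without replicates 1, 2 and 3, and also without diabetic replicate 2 (0.127) or 3 (0.0640).

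**Figure D2:**
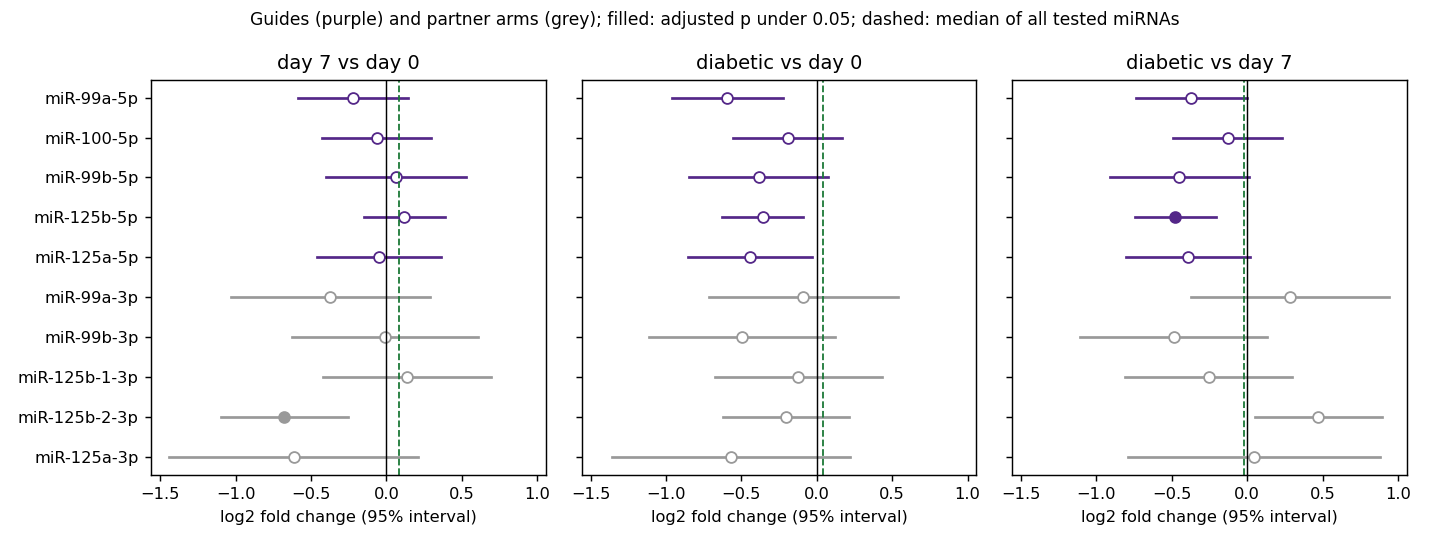
Log2 fold change (horizontal axis) of the 5 guide strands (purple) and the 5 tested partner arms (grey) in each contrast under TMM scaling, with lines for the 95% interval, filled circles for an adjusted p under 0.05 and a dashed line at the median of all tested miRNAs. All 5 guide strands lie below 0 in both contrasts of diabetic skin, although under total counts those against day 7 turn positive, and the 2 filled circles are miR-125b-5p in diabetic against day 7 skin and miR-125b-2-3p at day 7 against day 0.

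**Figure D3:**
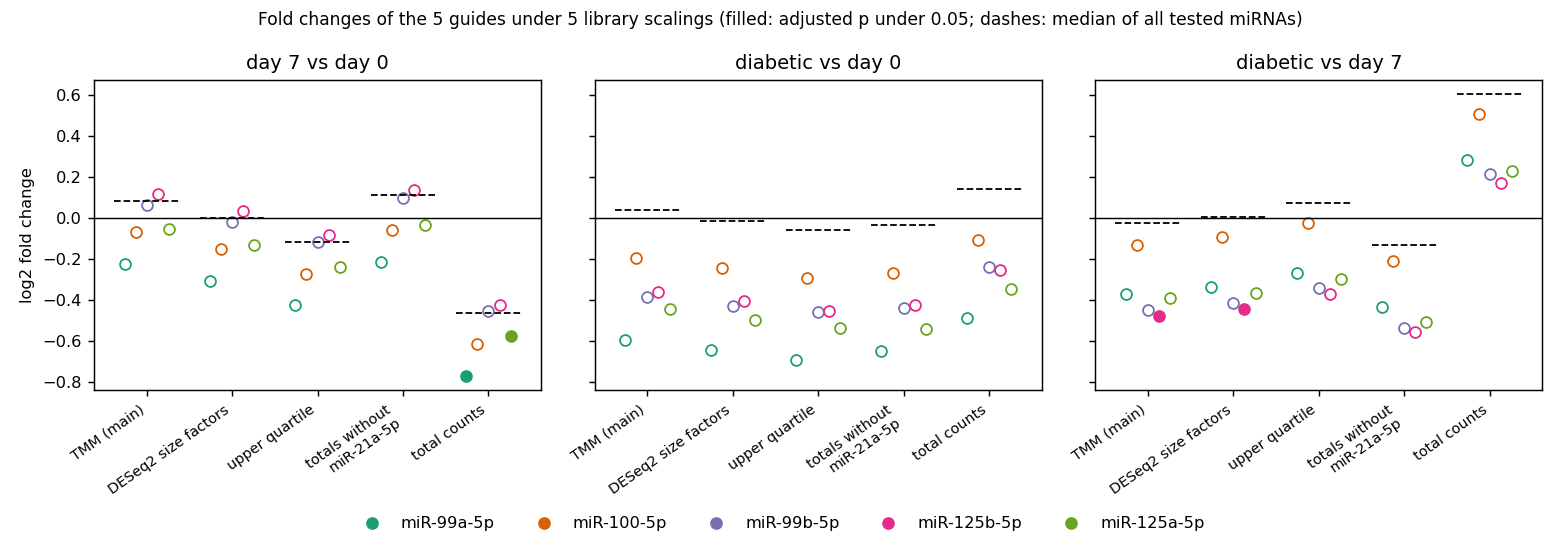
Log2 fold change (vertical axis) of the 5 guide strands in each contrast under 5 library scalings (horizontal axis), with filled circles for an adjusted p under 0.05 and a dashed line at the median of all tested miRNAs. Under total counts the members in diabetic against day 7 skin move above 0. The median of all tested miRNAs, at 0.61, moves by nearly the same amount, so the members' place below it is no check.

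Markers of other cell types differed in the same contrast. All 7 markers of myeloid and lymphoid cells had log2 fold changes below 0 in diabetic against day 7 skin. Of these, 5 were called lower, namely both arms of miR-223, both arms of miR-142a, and miR-155-5p. Arms of the same hairpin are not separate markers. miR-223-3p, a granulocyte and macrophage miRNA, had a log2 fold change of -2.05. miR-150-5p (edgeR adjusted p = 0.261) and miR-342-3p (0.681) were not called. The summed level of the 7 was 769.75 to 948 CPM in diabetic skin and 1774 to 2381 CPM at day 7. Of the 7 keratinocyte and epithelial markers, 3 were called higher and 0 had log2 fold changes below 0. Their sums were 62160 to 88867 CPM in diabetic skin and 57149 to 61562 CPM at day 7. miR-203-3p made up most of these sums, at a mean of 55022 CPM in diabetic skin and 44888 CPM at day 7. Its groups overlapped, and it was not called (edgeR adjusted p = 0.348). Of 4 erythroid markers 3 were called lower, of 4 fibroblast markers 1 was called higher, and of 2 melanocyte markers 1 was called higher. Log2 fold changes were below 0 for 4 erythroid, 2 fibroblast and 0 melanocyte markers. None of 8 further markers, of striated muscle, smooth muscle and endothelium, was called, and no marker was at 0 in all libraries. The striated muscle markers summed to 30278 to 132595 CPM in diabetic skin and 50399 to 100708 CPM at day 7. Libraries of the same group thus differed widely in these markers, and the lack of a call does not show even muscle content. The part of these cell types in the members' values was not tested. In whole skin, fewer cells of a type and less of a miRNA per cell cannot be told apart.

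Diabetic skin against day 0 skin gave lower values for the members, with no call. miR-99a-5p averaged 8005 ± 872 CPM in diabetic skin and 12078 ± 1101 CPM at day 0, a log2 fold change of -0.59 ± 0.17 with a 95% interval from -0.96 to -0.23. Its unadjusted p of 0.0045 ranked 7 of 447, and its adjusted p was 0.271. The log2 fold change for miR-125b-5p was -0.36 ± 0.12 (adjusted p = 0.420), for miR-125a-5p -0.44 ± 0.19 (0.546), for miR-99b-5p -0.39 ± 0.21 (0.679) and for miR-100-5p -0.19 ± 0.16 (0.761). No miRNA at all was called here by edgeR, 0 of 447 (0%), while 40 had an unadjusted p under 0.05 (8.95%), DESeq2 called 5 and limma 1. Of the members, 3 of 5 had an unadjusted p under 0.05, and neither DESeq2 nor limma called any. Ranges were lower without overlap for miR-99a-5p and miR-125b-5p, 2 of 5, beside 5.59% of all tested miRNAs. The members' median was -0.39 and that of all tested miRNAs 0.04, and 46.5% of all tested had log2 fold changes below 0, beside 5 of 5 members. The sign of each member was negative in every alternative fitted, and miR-99a-5p ranged from -0.69 to -0.49. No marker of any of the 8 cell-type lists was called in this contrast, where no miRNA was, so this does not show like composition. By unadjusted p in edgeR, the leukocyte marker miR-342-3p ranked 1 of 447, with a log2 fold change of 1.39 (adjusted p = 0.0569). Another of its list, miR-223-5p, ranked 16 at -0.92. The fibroblast markers miR-199b-5p and miR-199a-5p ranked 8 and 10, at 0.62 and -0.41. This contrast and the previous one share the diabetic libraries, so they are not independent.

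Day 7 against day 0 skin, the course of healing in mice not labelled diabetic, gave no called member. miR-99a-5p averaged 10350 ± 1544 CPM at day 7 and 12078 ± 1101 CPM at day 0, and a log2 fold change of -0.22 ± 0.17 (edgeR adjusted p = 0.422). miR-125b-5p averaged 2307 ± 111 CPM at day 7 and 2125 ± 148 CPM at day 0, with a log2 fold change of 0.12 ± 0.12 (0.551) and a 95% interval from -0.15 to 0.39. miR-100-5p, miR-99b-5p and miR-125a-5p had log2 fold changes of -0.07, 0.06 and -0.05. edgeR called 57 of 447 miRNAs (12.8%), 36 higher (8.05%) and 21 lower (4.7%), and 0 of 5 members. None of the members had an unadjusted p under 0.05, beside 28.2% of all tested, DESeq2 called 0 and limma, on values scaled by library total, called 2. Ranges were higher without overlap for miR-125b-5p, 1 of 5, beside 18.3% of all tested. The members' median was -0.05 and that of all tested 0.08, with log2 fold changes below 0 for 3 of 5 members and for 45.9% of all tested. Under total counts 16 miRNAs were higher and 117 lower, the median of all tested moved to -0.46, and that of the members to -0.57.

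**Figure D4:**
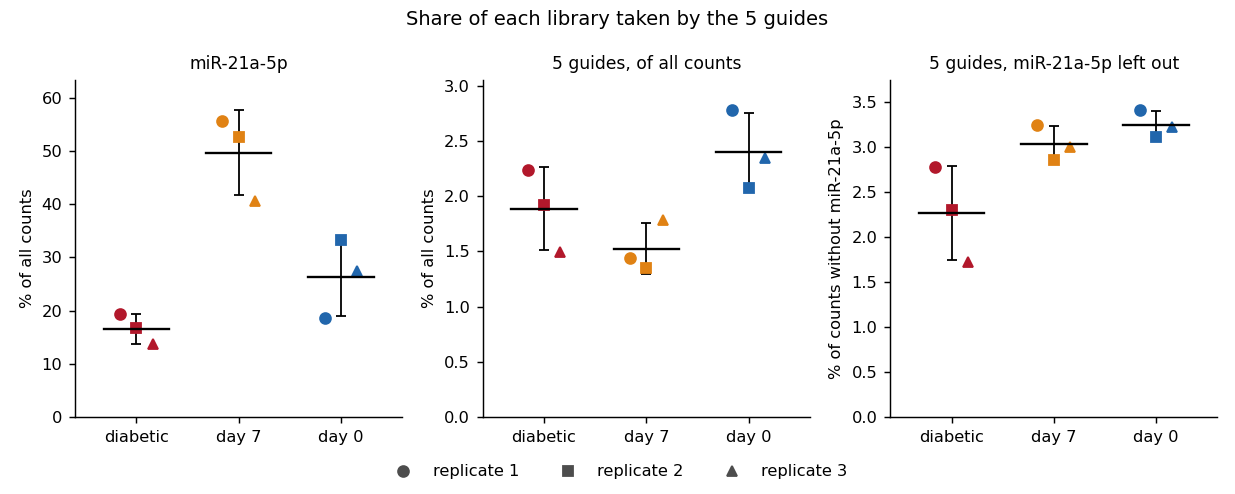
Percent of counts in each library (vertical axes, from 0) held by miR-21a-5p and by the 5 guide strands together, the last over all counts and over counts without miR-21a-5p, by group. Symbols are libraries, horizontal lines and whiskers the mean and SD of 3; over all counts the day 7 libraries hold 1.35 to 1.78%, and without miR-21a-5p they hold 2.85 to 3.25%, above diabetic skin.

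Together the 5 guide strands held 2.24, 1.92 and 1.49% of all counts in the diabetic libraries, 1.44, 1.35 and 1.78% at day 7, and 2.78, 2.08 and 2.34% at day 0. Day 7 was below day 0 without overlap, and diabetic skin overlapped with both. miR-99a-5p alone held 0.710 to 1.16% of all counts in diabetic skin, 0.664 to 0.968% at day 7 and 1.13 to 1.66% at day 0. The summed share thus weighs this member most. The difference in mean share was -0.874 percentage points for day 7 minus day 0 (exact two-sided permutation p = 0.1, the smallest that 3 against 3 allows), -0.515 for diabetic minus day 0 (exact p = 0.2) and 0.359 for diabetic minus day 7 (exact p = 0.2). With Benjamini-Hochberg adjustment over 12 tests of shares and ratios, these became 0.3, 0.4 and 0.4. Without the counts of miR-21a-5p, the shares were 2.78, 2.31 and 1.73% in diabetic skin, 3.25, 2.85 and 3.00% at day 7, and 3.41, 3.11 and 3.23% at day 0. Diabetic skin was then lowest without overlap, and its difference from day 7 turned to -0.764 percentage points (exact p = 0.1). Diabetic minus day 0 was then -0.978 points (exact p = 0.1), and day 7 minus day 0 shrank to -0.214 points with overlapping groups (exact p = 0.3). Taken within same-numbered libraries over all counts, diabetic skin and day 7 skin were each below day 0 in 3 of 3 pairs (exact sign-flip permutation p = 0.25 for each, the smallest that 3 pairs allow), and diabetic against day 7 gave p = 0.5.

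Ratios of members within a library do not depend on its scaling. The ratio of miR-99a-5p to miR-100-5p was 2.43, 2.65 and 1.93 in diabetic skin, 2.81, 2.74 and 2.69 at day 7, and 3.02, 3.39 and 2.85 at day 0. Its 3 groups did not overlap: diabetic skin was lowest and day 0 highest. The difference in mean log2 ratio was -0.41 for diabetic minus day 0, -0.25 for diabetic minus day 7 and -0.16 for day 7 minus day 0, each with an exact permutation p of 0.1, the smallest that 3 against 3 allows, and 0.3 after adjustment over the 12 tests. Within same-numbered libraries the exact sign-flip permutation p was 0.25 for each of the 3 differences, the smallest that 3 pairs allow. A small share of miR-99a-5p reads counted as miR-100-5p would enter this ratio, and its part was not tested.

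The ratio of miR-99b-5p to miR-100-5p, the members of the chromosome 17 and chromosome 9 clusters, was 0.690, 0.697 and 0.582 in diabetic skin, 0.903, 0.995 and 0.614 at day 7, and 0.443, 1.11 and 0.786 at day 0. The 3 groups overlapped, and the exact permutation p was 0.7 for diabetic against day 0, 0.3 for diabetic against day 7 and 0.7 for day 7 against day 0. miR-125a-5p over miR-125b-5p was 0.149, 0.225 and 0.224 in diabetic skin, 0.177, 0.201 and 0.184 at day 7, and 0.170, 0.259 and 0.209 at day 0. These groups overlapped too.

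**Figure D5:**
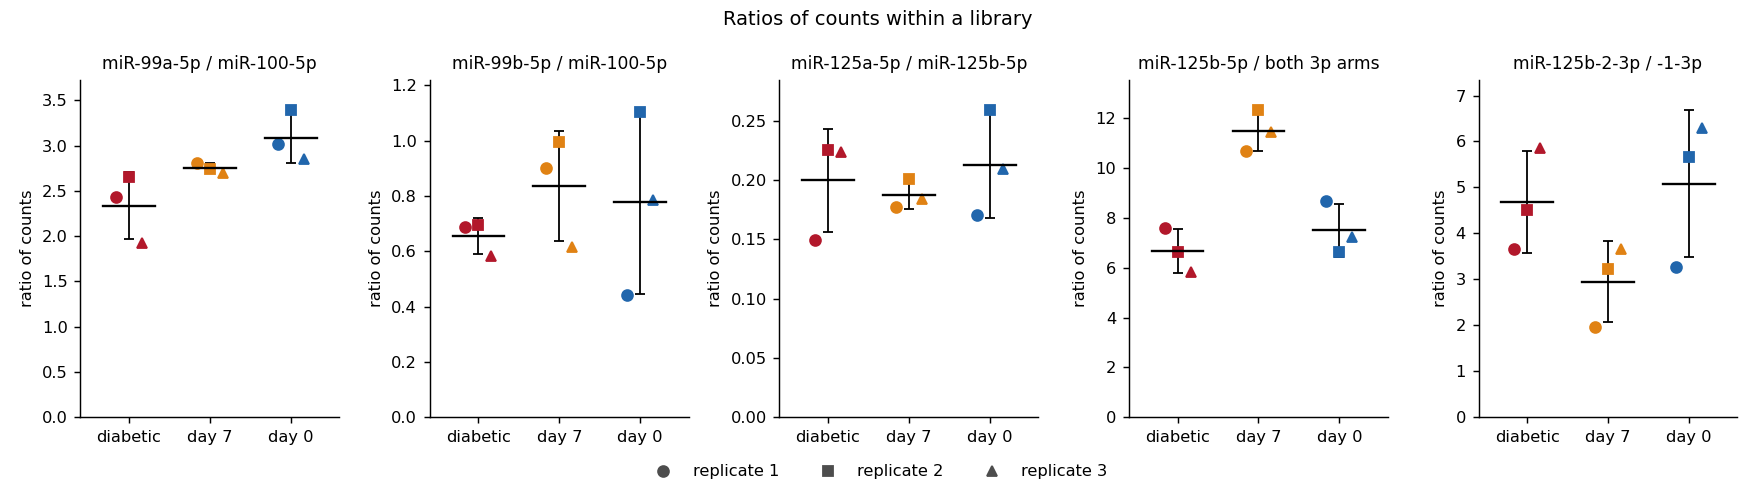
Ratios of counts within each library (vertical axes, from 0) for 3 pairs of guide strands, for miR-125b-5p over both of its partner arms, and for those arms over each other, by group. Symbols are libraries, horizontal lines and whiskers the mean and SD of 3; miR-99a-5p over miR-100-5p runs from 1.93 to 2.65 in diabetic skin, 2.69 to 2.81 at day 7 and 2.85 to 3.39 at day 0, with no overlap.

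The partner arms, cut from the other side of each hairpin and mostly degraded, have a separate row for each copy of miR-125b. Their levels do not give how the guide strand row divides between the copies, which was not tested. The miR-125b arms are shown with seeds in capitals because their sequences, unlike those of the guide strands, differ between the chromosome 9 and chromosome 16 genes.
miR-125b-1-3p: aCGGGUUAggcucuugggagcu
miR-125b-2-3p: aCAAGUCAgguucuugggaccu

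miR-125b-2-3p, from chr16:77646318-77646339, had 176, 206 and 234 CPM in the diabetic libraries, 139, 139 and 167 CPM at day 7, and 194, 251 and 267 CPM at day 0. Every day 7 library was below every diabetic and every day 0 library. It fell at day 7 against day 0, with a log2 fold change of -0.68 ± 0.19 and an adjusted p of 0.0406 in edgeR, and was the 1 of 5 tested partner arms called in any contrast. It passed in 16 of 22 alternatives, and the call was lost with totals without miR-21a-5p (adjusted p = 0.0529) and in 5 fits that left out 1 library. The adjusted p was 0.0948 and 0.150 without the second and the third day 0 library, 0.117 and 0.104 without the first and the second day 7 library, and 0.0528 without the second diabetic one. In diabetic against day 7 skin its log2 fold change was 0.47 ± 0.19 (adjusted p = 0.109), and it passed there in 3 of 22 alternatives, at 1.09 under total counts (0.0017) and in both limma fits. In the day 7 against day 0 contrast 6 of 7 myeloid and lymphoid markers were called higher and 3 of 7 keratinocyte and epithelial markers called lower. Log2 fold changes were below 0 for 0 of 7 and for 7 of 7 of these markers. Their sums at day 7 are given above, and at day 0 they were 874 to 1113 CPM for myeloid and lymphoid and 67984 to 81563 CPM for keratinocyte and epithelial markers. The part of these cells was not tested.

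miR-125b-1-3p, from chr9:41581980-41582001, had 48.1, 45.8 and 40.0 CPM in diabetic skin, 71.0, 43.1 and 45.7 CPM at day 7, and 59.1, 44.4 and 42.3 CPM at day 0. These groups overlapped, and its log2 fold change at day 7 against day 0 was 0.13 ± 0.25 (adjusted p = 0.754). The chromosome 16 arm was more abundant than the chromosome 9 arm in 9 of 9 libraries, by 1.96 to 6.30 times. These are levels of the arms, and the output of each gene was not tested. Read against both of its partner arms, miR-125b-5p stood at 7.58, 6.63 and 5.83 counts per partner count in diabetic skin, 10.7, 12.3 and 11.4 at day 7, and 8.67, 6.61 and 7.21 at day 0. Day 7 was above both other groups without overlap. This ratio was singled out after its values were seen and has no test.

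The other partner arms did not pass in any contrast under TMM. With values scaled by library total, miR-125a-3p passed at day 7 against day 0 in 3 alternatives, with a log2 fold change of -1.15 under total counts (edgeR adjusted p = 0.0433) and of -1.06 and -1.23 in limma. miR-99a-3p passed in diabetic against day 7 skin in 1, at 0.95 under total counts (0.0393). miR-99b-3p was the most abundant of them, at 56.5 to 97.0 CPM in diabetic skin, 93.9 to 115 CPM at day 7 and 67.1 to 130 CPM at day 0. miR-99a-3p had 15 to 53 counts per library and miR-125a-3p 6 to 57, so their fold changes have wide intervals, from -1.44 to 0.21 on the log2 scale for miR-125a-3p at day 7 against day 0. miR-100-3p had 0 to 4 counts and was not tested. The guide strand outnumbered its partner by 928 to 1763 times for miR-99a, 24.8 to 37.4 times for miR-99b and 35.7 to 155 times for miR-125a.

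The let-7 miRNAs of the same clusters, which restrain growth and cell cycle genes, gave no call in any contrast under TMM, 0 of 5 tested of 6. In diabetic against day 7 skin, let-7c-5p had a log2 fold change of 0.17 ± 0.15, let-7e-5p of 0.13 ± 0.18 and let-7a-5p of -0.20 ± 0.18, which turned to 0.47 under total counts. There let-7c-5p at 0.82 (edgeR adjusted p = 0.0128) and let-7e-5p at 0.78 (0.0057) passed, as both did in limma on values scaled by library total. At day 7 against day 0, let-7e-5p passed under the same 3 alternatives, at -0.61 under total counts (0.0294). Against day 0, diabetic skin had log2 fold changes of 0.16, 0.05 and 0.04 for let-7c-5p, let-7e-5p and let-7a-5p. The summed level of the 5 tested was 10494 to 12447 CPM in diabetic skin, 10310 to 11299 CPM at day 7 and 9434 to 11654 CPM at day 0, with the 3 groups overlapping. let-7a-5p and let-7c-5p have copies outside these clusters that share their rows, whereas let-7e-5p comes from the chromosome 17 cluster. Differences between let-7 and the members were not tested.

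The miRNAs whose pattern over the 9 libraries was most like each member were those with the smallest root mean square difference in centred log2 CPM. miR-125b-5p was closest to miR-199a-5p, at 0.0976, then miR-130b-5p at 0.127 and miR-676-5p at 0.144, while the median over the 442 other tested miRNAs was 0.462. Of these, miR-130b-5p averaged only 2.99 CPM, so its pattern rests on few counts. miR-199a-5p, one of the 4 fibroblast markers, was also among the 3 closest to miR-99a-5p, at 0.175 behind miR-22-5p at 0.132, with miR-195a-3p next at 0.180. It was the third closest to miR-125a-5p, at 0.211, after miR-214-5p at 0.183 and miR-140-3p at 0.207. miR-99b-5p was closest to miR-214-3p, another fibroblast marker, at 0.143, then to its own partner arm miR-99b-3p at 0.151 and to miR-674-3p at 0.156. miR-100-5p was closest to miR-3074-2-3p at 0.119, miR-24-2-5p at 0.121 and miR-148a-3p at 0.121. The first 2 of these lie on opposite strands of the same bases, and without a stated use of strand their reads cannot be told apart. Between members, the difference was smallest for miR-99a-5p and miR-125b-5p, at 0.180, and largest for miR-100-5p and miR-99b-5p, at 0.389. Members of the fibroblast list differed in direction: in diabetic against day 7 skin miR-199b-5p was higher, with a log2 fold change of 1.49 (edgeR adjusted p = 0.000584), and miR-199a-3p stood at 0.18, while miR-199a-5p stood at -0.34 and miR-214-3p at -0.49, none of these 3 called. These values describe 9 libraries that share their scaling and carry no test.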

How the data were processed

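Per the file headers, the authors deposited 2 values per miRNA and library, its read count and its TPM. The deposited counts are not normalized, and the deposited TPM values equal CPM of the library total, as checked on the table, and have no length term. Tools named in the submitters' processing notes are Bowtie and DESeq 3.0.3, with the build mm9, and no role is given. No source used here gives adapter trimming, mismatches, multiple matches or strand. The table holds no coordinates, and those printed are from RefSeq and GENCODE M21 on GRCm38.p6.

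Counts were tested in edgeR 4.0.16 (R 4.3.3) with TMM scaling, filterByExpr (minimum count 10, minimum total 15) and 1 quasi-likelihood fit over 9 libraries. Benjamini-Hochberg adjustment ran over all 447 miRNAs tested; the other rows hold 0.0217% of counts, and the table includes 30 rows of predicted miRNAs. Shares and ratios had exact two-sided permutation tests in scipy 1.17.1. DESeq2 1.42.0, and limma 3.58.1 on log2(TPM + 1), were alternatives. The scripts were tested on simulated data. Diabetic columns, named T0, were matched to titles by their T and their number. Same-numbered libraries deviated together in 9 of 9 pairs (correlations 0.102 to 0.484), so by this criterion, taken from the data alone, same-numbered libraries go together. The correlations share their group means and are not independent. Replicate 3 also had the lowest library total of each group, and the part of depth was not tested. No label explains the pairing. Between day 0 and day 7 libraries, a shared animal and a shared batch cannot be told apart. The diabetic libraries are labelled as from a diabetic mouse model, unlike the others, and the source of their pairing was not tested. The main fit and the permutation tests between groups left the pairing out, and a replicate block was run as an alternative. Members, marker lists and related miRNAs were named by list, and miRNAs of like pattern were the 3 nearest to each member in centred log2 CPM. The members and lists were chosen with earlier results of these data known. Intervals cover the spread between libraries, and the labels name no molecular identifiers.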

Additional observations from a re-analysis of the deposited data

How the results depend on the processing

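In diabetic against day 0 skin the 5 members kept a negative sign, and none passed, in each alternative run. The number of members called at day 7 against day 0 was 2 (miR-99a-5p and miR-125a-5p) under total counts and under limma with either pseudocount, against 0 with TMM. In diabetic against day 7 skin it was 0 under upper-quartile scaling, total counts, totals without miR-21a-5p, no low-count filter and both limma fits, against 1 with TMM; the cause was not tested. Leaving out 1 library gave 0 to 1 members called there, and 0 to 0 in the other contrasts. With the replicate block, miR-125b-5p in diabetic against day 7 skin stood at -0.48 on the log2 scale (adjusted p = 0.0243) and miR-125b-2-3p at day 7 against day 0 at -0.67 (0.0164); the block changed no call of a member. Differences in share, with 1 library left out, ranged from -0.692 to -0.318 for diabetic minus day 0, 0.181 to 0.556 for diabetic minus day 7 and -1.03 to -0.685 for day 7 minus day 0, and the diabetic minus day 7 difference was -0.764 without miR-21a-5p, where day 7 minus day 0 was -0.214. Log2 ratios of miR-99a-5p to miR-100-5p ranged from -0.51 to -0.28, -0.34 to -0.11 and -0.22 to -0.10 in the same order. Those of miR-99b-5p to miR-100-5p ranged from -0.51 to 0.15, -0.54 to -0.19 and -0.18 to 0.48, and those of miR-125a-5p to miR-125b-5p from -0.25 to 0.10, -0.033 to 0.26 and -0.31 to -0.01.

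The sign of the called miR-125b-5p difference in diabetic against day 7 skin, and of results without a call, also turned. Total counts gave, for diabetic against day 7 skin, log2 fold changes of 0.28 for miR-99a-5p, 0.51 for miR-100-5p, 0.21 for miR-99b-5p, 0.17 for miR-125b-5p, 0.23 for miR-125a-5p, 0.20 for miR-99b-3p, 0.42 for miR-125b-1-3p, 0.47 for let-7a-5p and 0.25 for miR-351-5p. limma, with a pseudocount of 1 or 0.1, gave 0.27, 0.52, 0.19, 0.16, 0.23, 0.12, 0.41, 0.42 and 0.27 in the same order. miR-125a-3p there was -0.024 with totals without miR-21a-5p. At day 7 against day 0, total counts gave -0.45 for miR-99b-5p, -0.42 for miR-125b-5p, -0.44 for miR-125b-1-3p and -0.32 for let-7a-5p, and limma gave -0.43, -0.42, -0.42 or -0.43, and -0.28. Upper-quartile scaling gave -0.12, -0.082 and -0.071 for the first 3. miR-99b-5p was -0.017 with DESeq2 or its size factors, -0.044 with no filter, and -0.0015 or -0.0016 with the miR-99a-5p and miR-100-5p rows or the miR-125 rows summed. miR-99b-3p was 0.024 with totals without miR-21a-5p and 0.031 at a mean CPM of at least 10, where let-7c-5p was 0.019. For diabetic against day 0 skin, miR-99a-3p was 0.042 under total counts. let-7a-5p was -0.0050 with DESeq2 size factors, -0.0049 with DESeq2, -0.061 with upper-quartile scaling and -0.0096 with totals without miR-21a-5p, and let-7e-5p was -0.029 and -0.024 under the last 2.

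Leaving out 1 library moved the sign of uncalled log2 fold changes for 12 results. In diabetic against day 7 skin they ranged from -0.18 to 0.033 for miR-100-5p, -0.32 to 0.054 for miR-125b-1-3p and -0.17 to 0.39 for miR-125a-3p. Against day 0 skin, the ranges for diabetic skin were -0.28 to 0.040 for miR-99a-3p, -0.22 to 0.039 for miR-125b-1-3p, -0.074 to 0.22 for let-7a-5p and -0.12 to 0.14 for let-7e-5p. At day 7 against day 0 they ranged from -0.24 to 0.17 for miR-99b-5p, -0.0076 to 0.16 for miR-125b-5p, -0.33 to 0.12 for miR-99b-3p, -0.20 to 0.23 for miR-125b-1-3p and -0.18 to 0.025 for let-7c-5p.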

Other observations

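miRNAs related to the members by sequence were measured in the same libraries. miR-351-5p, which carries the miR-125 seed but is encoded on chromosome X, had 29.7, 37.9 and 30.7 CPM in diabetic skin, 48.0, 54.8 and 27.9 CPM at day 7, and 21.0, 30.6 and 28.8 CPM at day 0. Its groups overlapped, and edgeR's adjusted p was 0.769 for diabetic against day 0, 0.324 for diabetic against day 7 and 0.133 for day 7 against day 0.

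miR-10a-5p, which lies among the Hox genes and resembles the miR-99/100 family in sequence, had 11258, 11086 and 7675 CPM in diabetic skin, 5835, 5391 and 6742 CPM at day 7, and 7407, 5673 and 7119 CPM at day 0. It was higher in diabetic than in day 7 skin, with a log2 fold change of 0.74 ± 0.19 and an adjusted p of 0.0180 in edgeR, and it passed in 18 of 22 alternatives. Its relative miR-10b-5p had a log2 fold change of -0.03 ± 0.19 in the same contrast (adjusted p = 0.941).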
